A study of Homo sapiens with 3 samples.

Results

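The regions described here are MYC peaks that lie at the ends of neighbouring genes, so that 1 summit is near 2 or more genes. They were chosen by position alone: the summit of the peak had to lie within 1000 bp of an annotated end of at least 2 different RefSeq protein-coding genes (GRCh38.p14). Of 9818 peaks in the authors' deposited list, 1268 met this rule (12.9%, Wilson 95% interval 12.3 to 13.6). They make up 19.9% of the 6387 peaks at any protein-coding gene end, and the other 5119 lay at an end of exactly 1 gene. Of the 1268 shared peaks, 1222 lay at 2 genes and 46 at 3, and they touched 2519 different genes.

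The material was parental U2OS, a line derived from a human bone tumour, grown in serum and given no drug or genetic change that the labels name. Mouse NIH3T3 fibroblasts were mixed in at 10% as a spike-in after both kinds of cell had been cross-linked (1% formaldehyde, 10 min), which is what the name ChIP-Rx stands for. Anti-MYC antibody was used for 2 libraries, and 1 further library is the input. A peak list holds no expression with which to check the cell type, and whether the antibody libraries were separate cultures is not stated.

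Every peak value below is the authors' own. Fold is enrichment over control at the summit, and −log10 q is the significance of the peak. A peak is called strongest or weakest by −log10 q, and its fold is printed beside it, so folds need not follow that order. These values come without an error, since the list does not separate the libraries and their depth was not analysed here. Wilson intervals cover counting error within this 1 list, peaks are not replicates, and no test between groups of peaks was made.

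MYC is a transcription factor that binds DNA together with MAX, most strongly at the E-box, a short palindromic sequence. It is known for occupying active promoters widely and for driving genes of growth and biosynthesis. In a head-to-head or bidirectional gene pair, the starts of the 2 genes face away from each other and the DNA between them acts as promoter for both. Many housekeeping genes, DNA repair genes among them, are known to stand in such pairs.

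The sequences at the summits show what lay under some of the stronger of these peaks. Each line below gives 151 bases of the plus strand centred on the summit, read from the RefSeq promoter windows (250 bases before to 50 after an annotated start) of the peak's own genes. They are the 9 strongest shared peaks by −log10 q, among the 511 used for summit sequences. Capitals mark CACGTG, the canonical E-box, and CACGCG or its reverse complement CGCGTG, a related form that MYC and MAX also bind.
YARS1 and S100PBP, chr1:32817297-32817447: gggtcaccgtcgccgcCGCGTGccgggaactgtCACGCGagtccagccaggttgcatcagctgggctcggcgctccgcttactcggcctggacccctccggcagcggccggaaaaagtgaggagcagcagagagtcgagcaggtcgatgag
GNL3 and PBRM1, chr3:52685968-52686118: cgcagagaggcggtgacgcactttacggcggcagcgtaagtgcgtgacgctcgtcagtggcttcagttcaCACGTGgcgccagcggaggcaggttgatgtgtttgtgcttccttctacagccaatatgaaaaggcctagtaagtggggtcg
MEPCE and ZCWPW1, chr7:100429239-100429389: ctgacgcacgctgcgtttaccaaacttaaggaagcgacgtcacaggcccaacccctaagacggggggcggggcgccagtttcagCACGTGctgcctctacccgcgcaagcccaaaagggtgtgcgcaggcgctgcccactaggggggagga
AP4M1 and MCM7, chr7:100100524-100100674: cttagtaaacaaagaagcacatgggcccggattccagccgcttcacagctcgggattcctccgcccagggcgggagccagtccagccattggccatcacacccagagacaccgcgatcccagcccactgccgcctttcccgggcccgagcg
LAMTOR2 and UBQLN4, chr1:156054570-156054720: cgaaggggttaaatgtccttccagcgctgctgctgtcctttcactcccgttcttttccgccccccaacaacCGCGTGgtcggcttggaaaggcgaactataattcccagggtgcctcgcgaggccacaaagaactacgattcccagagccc
HSPD1 and HSPE1, chr2:197499885-197500035: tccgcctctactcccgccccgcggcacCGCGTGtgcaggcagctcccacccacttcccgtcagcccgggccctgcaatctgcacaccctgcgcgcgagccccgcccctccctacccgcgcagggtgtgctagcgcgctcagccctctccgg
SIRT5 and NOL7, chr6:13615111-13615261: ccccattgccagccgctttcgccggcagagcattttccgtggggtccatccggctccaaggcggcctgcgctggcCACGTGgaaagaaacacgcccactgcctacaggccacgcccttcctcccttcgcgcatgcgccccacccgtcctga
HPD and PSMD9, chr12:121888573-121888723: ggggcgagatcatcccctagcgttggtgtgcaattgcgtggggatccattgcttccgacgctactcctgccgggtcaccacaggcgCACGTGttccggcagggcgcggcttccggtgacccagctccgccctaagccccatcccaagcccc
BRIX1 and RAD1, chr5:34915537-34915687: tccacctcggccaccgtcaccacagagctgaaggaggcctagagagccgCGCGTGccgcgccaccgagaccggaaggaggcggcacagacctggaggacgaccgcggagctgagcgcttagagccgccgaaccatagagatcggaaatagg

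In GNL3 and PBRM1 the centre of CACGTG lay 2.5 bp from the summit, and the same distance was found in SIRT5 and NOL7. The distance was 11.5 bp in MEPCE and ZCWPW1 and 13.5 bp in HPD and PSMD9. The CACGCG form appeared 2 times at YARS1 and S100PBP, with the nearer centre 39.5 bp from the summit. It lay 1.5 bp from the summit in LAMTOR2 and UBQLN4, 23.5 bp in BRIX1 and RAD1 and 45.5 bp in the HSPD1 and HSPE1 promoter. The stretch at AP4M1 and MCM7 held neither form.

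The next sequences show the DNA between 2 facing starts, which need not hold the summit. Each line gives all bases between the annotated starts of a head-to-head pair, on the plus strand from the minus-strand gene to the plus-strand gene, with the same capitals. They are the strongest such pairs with 20 to 300 bases between the starts in the RefSeq windows, without the pairs already shown above by their summit, except that MEPCE and ZCWPW1 appear with both.
ASPRV1 and PCBP1, chr2:70087376-70087476: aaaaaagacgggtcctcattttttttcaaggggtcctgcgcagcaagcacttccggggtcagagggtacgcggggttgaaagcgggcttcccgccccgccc
ZCWPW1 and MEPCE, chr7:100428704-100428789: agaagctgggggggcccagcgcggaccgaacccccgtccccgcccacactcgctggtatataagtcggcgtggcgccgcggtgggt
RPL9 and LIAS, chr4:39458923-39459055: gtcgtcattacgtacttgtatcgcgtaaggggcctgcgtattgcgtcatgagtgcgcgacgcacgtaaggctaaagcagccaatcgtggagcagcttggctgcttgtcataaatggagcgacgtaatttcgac
PTRH2 and VMP1, chr17:59707431-59707653: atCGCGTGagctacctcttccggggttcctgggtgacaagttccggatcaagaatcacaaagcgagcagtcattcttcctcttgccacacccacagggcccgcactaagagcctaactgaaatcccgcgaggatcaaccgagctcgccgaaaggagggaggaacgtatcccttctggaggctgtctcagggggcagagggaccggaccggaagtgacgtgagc
EMC1 and MRTO4, chr1:19251525-19251804: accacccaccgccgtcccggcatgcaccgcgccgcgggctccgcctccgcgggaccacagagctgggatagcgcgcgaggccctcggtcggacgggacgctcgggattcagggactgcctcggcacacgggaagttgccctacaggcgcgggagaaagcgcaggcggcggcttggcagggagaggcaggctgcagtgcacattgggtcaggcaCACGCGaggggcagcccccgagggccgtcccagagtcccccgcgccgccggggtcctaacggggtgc
PIERCE1 and MRPS2, chr9:135499870-135499964: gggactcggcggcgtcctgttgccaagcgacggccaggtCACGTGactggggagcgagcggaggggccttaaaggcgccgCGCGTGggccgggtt

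MEPCE and ZCWPW1 had no match in their 86 bases between the starts, and the summit with its CACGTG lay 523 bp inside MEPCE. MRPS2 and PIERCE1 had both forms between the starts, but their peak began beyond the start of MRPS2 and its summit lay 698 bp inside that gene. The summit also lay outside the printed stretch at ASPRV1 and PCBP1 (397 bp inside ASPRV1) and at RPL9 and LIAS (112 bp inside RPL9). At EMC1 and MRTO4 it lay just inside MRTO4, and only at PTRH2 and VMP1 did the printed stretch hold it. These distances are to the outer end of each gene's span, and other annotated starts can lie nearer to the summit. At MEPCE and ZCWPW1 the summit stretch was itself read from promoter windows of these genes, so a further annotated start lay nearer.

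The peak with the highest −log10 q among the shared ones (2709) lay at the facing starts of CCDC47, which helps insert membrane proteins, and DDX42, an RNA helicase of the splicing machinery. It covered chromosome 17 from 63773213 to 63774800 (hg38), and its summit was 41 bp inside one annotated end and 244 bp from the other. The highest fold, 97.7, belonged to EIF4A1, the helicase that unwinds mRNA for translation, and SENP3, a nucleolar SUMO protease (chromosome 17, 7572131 to 7574242). There the end of SENP3 and the start of EIF4A1 are 856 bp apart, and the summit lay between them, 282 bp from the start of EIF4A1 and 574 bp from the end of SENP3. Next by fold were the sorting nexin gene SNX5 with MGME1, a nuclease of mitochondrial DNA (fold 79.3, chromosome 20, 17967880 to 17969678), and SNX8 with the initiation factor gene EIF3B (76.9). In both pairs the starts overlap, so that each gene begins inside the other, by 204 and 411 bp. YARS1, the tyrosyl-tRNA synthetase gene, with S100PBP (68.6) and PCBP1, an RNA-binding protein gene, with ASPRV1 (67.4) completed the highest 5 by fold.

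The others among the 15 highest by −log10 q had folds from 33.7 to 49. GNL3, a nucleolar GTPase gene, starts 7 bp from PBRM1, a chromatin remodelling subunit (fold 40.1). METTL1, which methylates tRNA, lay 509 bp from EEF1AKMT3, a methyltransferase of an elongation factor (44.2). TBCB, a tubulin folding factor, lay 92 bp from POLR2I, an RNA polymerase II subunit (36.3). CCT5 of the cytosolic chaperonin lay 33 bp from ATPSCKMT (47.8), and HNRNPA1, a splicing regulator, 604 bp from CBX5, a heterochromatin protein (36.7). RPL5 with DIPK1A (33.7), MEPCE, which caps the 7SK RNA, with ZCWPW1 (34.9) and VPS9D1 with ZNF276 (36.6) had similar folds. The peak at NME1 (49) counted as shared because the read-through gene NME1-NME2 has the same start. Of all 1268 peaks, 34 were shared through such a read-through gene alone.

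Head-to-head pairs made up most of the shared peaks. Strand came from the RefSeq promoter table, which held both genes for 937 of the 1222 peaks at 2 genes. Among these 937, 738 (78.8%, 76.0 to 81.3) joined 2 starts on opposite strands, 551 with separate spans and 187 with starts that overlap. Another 140 (14.9%) were head to tail, where the start of one gene follows the end of another on the same strand. In 46 the 2 genes start on the same strand, with a median of 0 bp between the starts (upper quartile 99.5 bp). Peaks that joined 2 gene ends and no start were few: 2 lay at tail-to-tail pairs, MOV10 with RHOC (fold 3.85) and PDE6A with PPARGC1B (6.02), and 1 at the common end of ZNF197 and ZNF660-ZNF197 (5.74). All 3 were weaker than the median shared peak.

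Head-to-head pairs also stood out when all close gene ends of the genome were counted, bound or not. Simple pairs were defined as ends of 2 genes at most 1000 bp apart with no end of a further gene in reach, and 3092 were found. Strand was not known for 878 of these pairs (30.4% with a summit) and for 6630 lone ends (12.2%), which are left out of the arrangements below. A summit lay within 1000 bp of both starts in 718 of 1003 head-to-head pairs (71.6%, 68.7 to 74.3). At lone starts, with no other gene's end within 2000 bp, the share was 32.7% (3911 of 11953). Head-to-tail pairs, with 1 start each, reached 31.3% (128 of 409, 27.0 to 36.0), which overlaps the lone starts. Tail-to-tail pairs reached 0.668% (4 of 599), beside 0.559% of lone ends (69 of 12335). In the stronger 50% of peaks by −log10 q alone, the head-to-head share was 45.2% (453 of 1003). The distance between the starts made little difference within head-to-head pairs with separate spans, where the share was 70.0% up to 100 bp, 75.9% up to 250 bp, 72.5% up to 500 bp and 69.1% up to 1000 bp. A head-to-head pair offers 2 starts to a summit and a lone start offers 1, and expression of the genes was not analysed here.

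**Figure D1:**
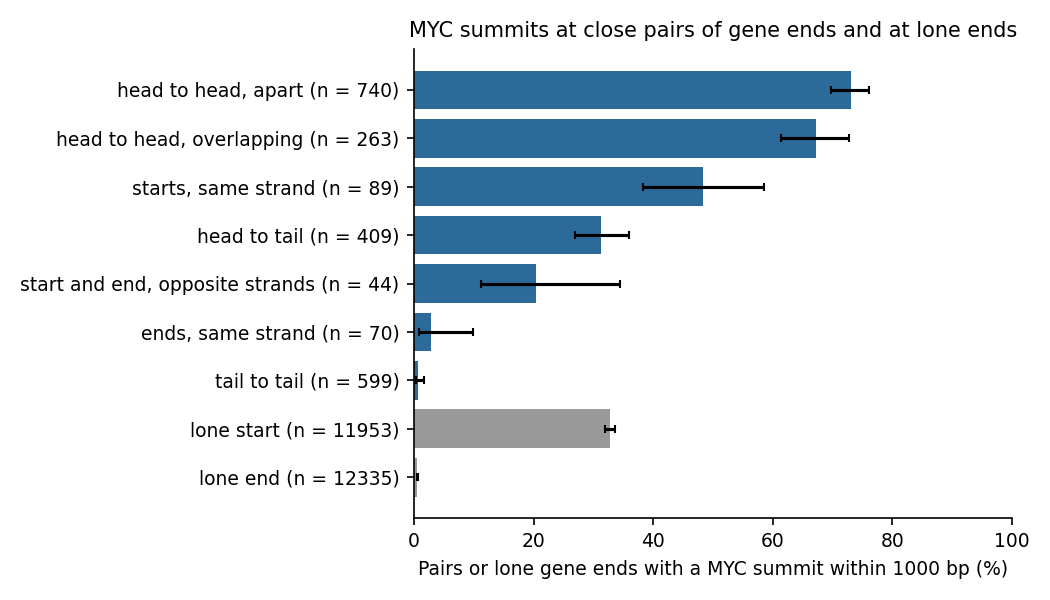
Horizontal bars give the percentage of simple gene-end pairs (blue) or lone gene ends (grey) with a MYC summit within 1000 bp of both ends or of the lone end, with Wilson 95% intervals and the number of pairs or ends. Head-to-head pairs with separate spans stand at 73.1% and lone starts at 32.7%, while tail-to-tail pairs and lone ends stay under 1%.

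Membership of a growth or housekeeping list went with a higher share in both arrangements. Head-to-head pairs with at least 1 gene of 15 such lists had a summit near both starts in 203 of 232 cases (87.5%, 82.6 to 91.2), and pairs without one in 515 of 771 (66.8%, 63.4 to 70.0). Lone starts of list genes had one in 403 of 521 cases (77.4%, 73.6 to 80.7) and lone starts of other genes in 3508 of 11432 (30.7%). Pairs and lone starts thus lay further apart outside the lists than within them. This split was chosen after the values had been seen.

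Summits lay close to the starts. In the 551 head-to-head peaks with separate spans, the median distance from the summit to the nearer start was 49 bp, and 383 (69.5%, 65.5 to 73.2) lay within 100 bp of it. Peaks at the start of a single gene had a median distance of 158.5 bp and 38.6% within 100 bp. The 2 classes cannot be compared like for like, because the distance at a pair is taken to the nearer of 2 starts. The rule also required the summit of a shared peak to lie near both starts. A shorter distance at pairs is therefore partly built in, and no conclusion is drawn from it. The summit lay between the starts in 217 of the 551 (39.4%, 35.4 to 43.5), where the median distance between the starts was 170 bp (quartiles 102.5 and 279.5). Up to 100 bp apart, 28.9% of summits lay between the starts, and this stretch was a median of 3.25% of the positions the rule allows. From 251 to 500 bp apart the share was 50.8%, against 19.7% of the allowed positions. From 501 to 1000 bp apart it was 56.4% (22 of 39, 41.0 to 70.7), an interval that includes the 50.15% of allowed positions. With starts 100 bp or more apart and the summit between them, 76 of 178 summits lay in the middle 50% of the gap.

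**Figure D2:**
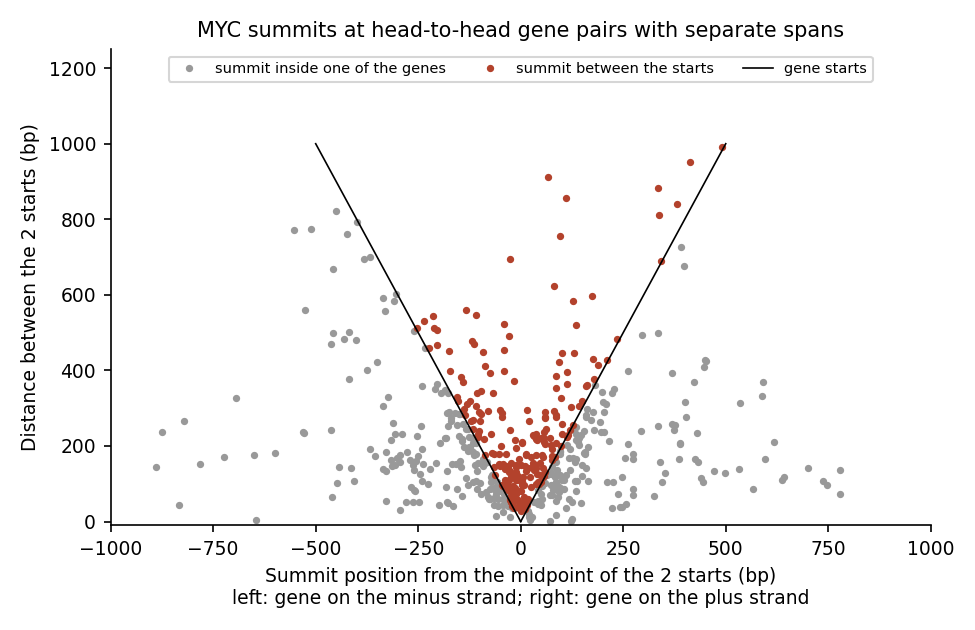
Each point is 1 head-to-head peak with separate gene spans, placed by the position of its summit from the midpoint of the 2 starts (x, in bp) and by the distance between the starts (y, in bp). The black lines are the starts. Red summits lie between the starts and grey ones inside a gene, and most follow the lines closely. Pairs with starts over 1000 bp apart are not drawn.

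At head-to-tail pairs the summit went with the start. It was nearer to the start of the downstream gene than to the end of the upstream one in 121 of 140 peaks (86.4%, 79.8 to 91.1). Among the strongest by −log10 q, named after their values were seen, were EIF4A1 and SENP3, CAD, the enzyme that opens pyrimidine synthesis, with ATRAID (fold 26.5, 89 bp from the summit to the nearer gene), LZTR1 with AIFM3 (22.4), and CYCS, the cytochrome c gene, with SPMIP4 (19.5). GPX1, a peroxide-removing enzyme, with RHOA (23.4) and SELENOH with TMX2 (20.5) followed. Of the 19 peaks nearer to the end of the upstream gene, the strongest was SIRT5 with NOL7, a nucleolar protein gene (39.2), with distances of 27 and 150 bp. KIF22, a mitotic kinesin, with MAZ (34.6) was next, at 181 and 558 bp. These are the peaks in which the 3′ end of one gene, not the start of the next, was closest to the summit.

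Shared peaks were slightly higher and wider than peaks of 1 gene. The median fold was 8.61 (quartiles 5.98 and 13.3) in the 1268 shared peaks, 8.07 in the 5119 single ones and 7.16 in the 3431 peaks at no protein-coding end. The difference between shared and single was 0.09 log2 units, small beside the spread within either class. Of shared peaks 514 had a fold of at least 10 (40.5%, 37.9 to 43.3), against 32.6% of all peaks and 35.1% of single ones. At a fold of at least 20 there were 120 (9.46%, 7.97 to 11.2), against 6.97% of all peaks and 8.28% of single ones. A fold of at least 40 was reached by 13 (1.03%), against 0.998% of all peaks and 1.33% of single ones. The upper tail of the shared peaks was thus near that of single peaks. Median −log10 q was 61 against 52.3. Median width was 872 bp (quartiles 640.8 and 1151) against 801 bp.

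Fold and width differed modestly between arrangements. Head-to-head peaks with overlapping starts had a median fold of 9.82 and a width of 937 bp, those with separate spans 8.63 and 873 bp, and head-to-tail peaks 8.08 and 805 bp. Peaks at the start of a single gene stood at 8.16 and 808 bp, and the 72 at the end of a single gene at 7.37 and 600 bp. Within head-to-head pairs with separate spans the median width was 770 bp where the starts were up to 100 bp apart. It was 896.5 bp from 101 to 250 bp, 937.5 bp from 251 to 500 bp and 992 bp from 501 to 1000 bp. The median fold over the same classes was 7.84, 8.80, 8.71 and 8.30, so the fold showed no such order.

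**Figure D3:**
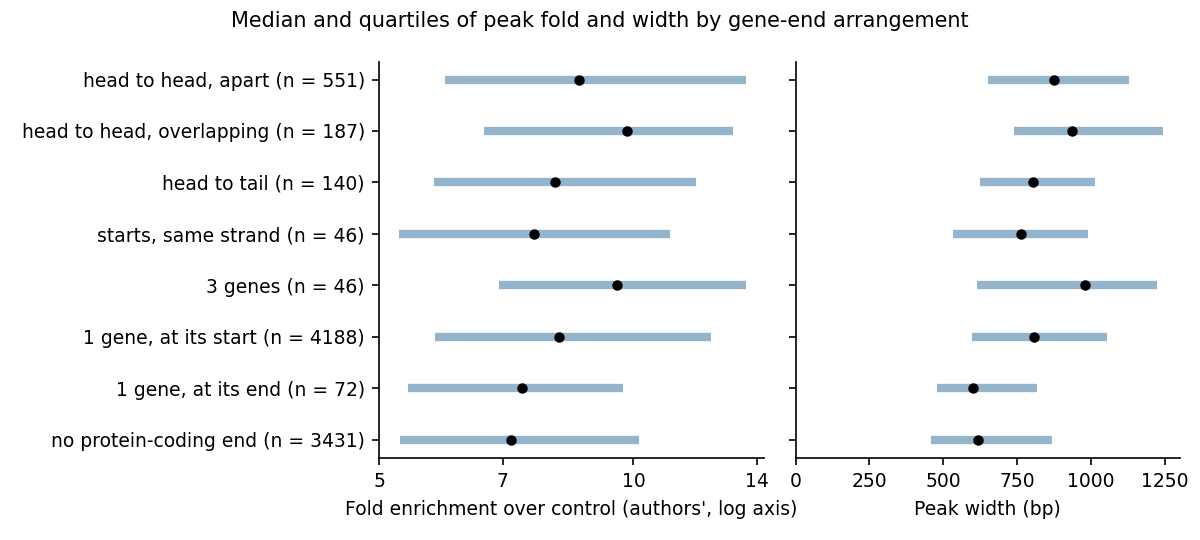
Points are medians and bars run from the lower to the upper quartile of the authors' fold (left, log axis) and of peak width in bp (right), by the arrangement of the genes at the peak, with the number of peaks. Folds overlap widely between all classes, while median widths run from 600 bp at ends of single genes to 978 bp at peaks of 3 genes.

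Genes of the growth machinery were often found at shared peaks. Over all protein-coding genes, 37.6% had a summit at an end and 12.6% were at a shared peak. Median folds of gene lists take each gene's strongest peak by −log10 q, which for a gene at a shared peak can be another of its peaks. In each of the 15 growth and housekeeping lists a larger share than 12.6% was at a shared peak, from 17.3% of proteasome genes to 44.0% of respiratory chain genes. All 15 are also bound more often as a whole, and the share of bound genes that sit at a shared peak was 33.5% over all bound genes. That share was below 33.5% in 5 of the 15 lists: proteasome (24.3%), cytosolic ribosomal proteins (26.7%), nucleotide and one-carbon synthesis (26.8%), cell cycle regulators (30.6%) and translation factors (33.3%). It was 34.4% of aminoacyl-tRNA synthetases, 38.2% of polymerases and general transcription factors and 38.5% of DNA replication genes. It reached 41.7% in ribosome biogenesis, 42% in chaperonins and heat shock, 43.5% in tRNA modification, 47.0% in the spliceosome and 47.1% in DNA repair.

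Mitochondrial genes stood high in both. Of 84 respiratory chain subunit and assembly genes 37 were at a shared peak (44.0%, 33.9 to 54.7), which is 56.9% of the bound ones (44.8 to 68.2). Their strongest peaks by −log10 q were WDR77 with ATP5PB, a subunit of ATP synthase (fold 23.4), EEF1B2 with NDUFS1 of complex I (26.7) and NDUFB9 with TATDN1 (13.96). Of 78 mitochondrial ribosomal protein genes 31 were at a shared peak (39.7%, 29.6 to 50.8), 50% of the bound ones. MRPS2 with PIERCE1 (43.1), MRPL40 with the histone chaperone gene HIRA (15.1) and MRPL27 with EME1, a subunit of a DNA repair nuclease (14.4), were strongest by −log10 q. The median fold of these ribosomal protein genes was 8.18 for those at shared peaks and 9.92 in the 31 bound at single peaks.

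DNA repair genes at a shared peak had higher peaks than those bound at single peaks. Of 103 genes 41 were at a shared peak (39.8%, 30.9 to 49.5), with a median fold of 11.0, against 6.90 in the 46 bound at single peaks and 8.72 in all genes at shared peaks. APEX1, the main endonuclease for abasic sites, shared a peak with OSGEP, a tRNA modification enzyme (fold 23.1). RAD1 of the checkpoint clamp shared one with BRIX1, a ribosome biogenesis factor (38.4), and PRKDC, the DNA-dependent kinase, with MCM4 of the replicative helicase (32.0). DNA replication genes were at a shared peak in 20 of 57 cases (35.1%), including MCM7 with AP4M1 (37.4) and POLE3 with C9orf43 (17.4).

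Several of the strongest shared peaks held a gene of RNA or protein synthesis. Ribosome biogenesis and nucleolar genes were at a shared peak in 35 of 91 cases (38.5%, 29.1 to 48.7). The median fold of these genes was 16.6, about that of the ones bound at single peaks (16.0). PNO1, a factor of the small subunit, with DNAAF10 (26.4) joined GNL3 and SENP3 as the highest by −log10 q. Cytosolic ribosomal proteins were bound in 75 of 79 cases but shared a peak in 20 (25.3%, 17.0 to 35.9), 26.7% of the bound ones. RPL5, RPL4 with ZWILCH of the kinetochore (30.3) and RPL9 with LIAS, the lipoate synthase (21.8), led them by −log10 q. Spliceosome genes were at a shared peak in 31 of 76 cases (40.8%), with DDX42, SNRPD3 with GUCD1 (13.4) and PPIH with the RNA-binding protein gene YBX1 (13.5). tRNA modification genes reached 30 of 84 (35.7%), with NSUN2, a tRNA methyltransferase, beside SRD5A1 (22.3) and the pseudouridine synthase TRUB2 beside COQ4 of ubiquinone synthesis (19.8).

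Translation factors were at a shared peak in 16 of 54 cases (29.6%), among them EIF2S1 with ATP6V1D of the vacuolar proton pump (14.7). Aminoacyl-tRNA synthetases reached 11 of 38 (28.9%), with EARS2 and UBFD1 (54.5) and MARS1 and ARHGAP9 (23.4). Polymerase and general transcription genes reached 21 of 94 (22.3%), among them GTF3C4 with the helicase gene DDX31 (19.1) and TAF1D with C11orf54 (17.3). Chaperonin and heat shock genes reached 21 of 65 (32.3%), with BOP1 and HSF1, the heat shock regulator (21.0, chromosome 8). Nucleotide and one-carbon genes reached 11 of 54 (20.4%), among them CCT6A with PSPH of serine synthesis (35.4). The median fold of the genes at shared peaks was 19.9, against 11.7 in those bound at single peaks. Cell cycle regulators reached 15 of 62 (24.2%), with the mitotic kinase gene AURKA beside CSTF1 (13.4) and the ubiquitin ligase subunit genes ANAPC10 beside ABCE1 (26.5) and ANAPC13 beside CEP63 (17.2). Proteasome genes were lowest of the growth lists at 9 of 52 (17.3%, 9.38 to 29.7), with PSMD9 and HPD (31.8), PSME4 and ACYP2 (11.8) and PSMA7 and SS18L1 (12.6).

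Histone and matrix genes were rarely bound and rarely at a shared peak. Histones made during replication, which often stand in head-to-head pairs, reached 5 of 74 (6.76%, 2.92 to 14.9), which is 45.5% of the 11 bound ones (21.3 to 72.0), including H2BC12 with H2AC12 (fold 8.82) and H2BC21 with H2AC20 (5.08). Both summits lay 730 bp or more from either end. Extracellular matrix genes reached 2 of 53 (3.77%, 1.04 to 12.8), out of 12 bound: COL5A2 beside the ribosome biogenesis gene WDR75 (8.04) and THBS1 beside LOC124903470 (4.22).

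**Figure D4:**
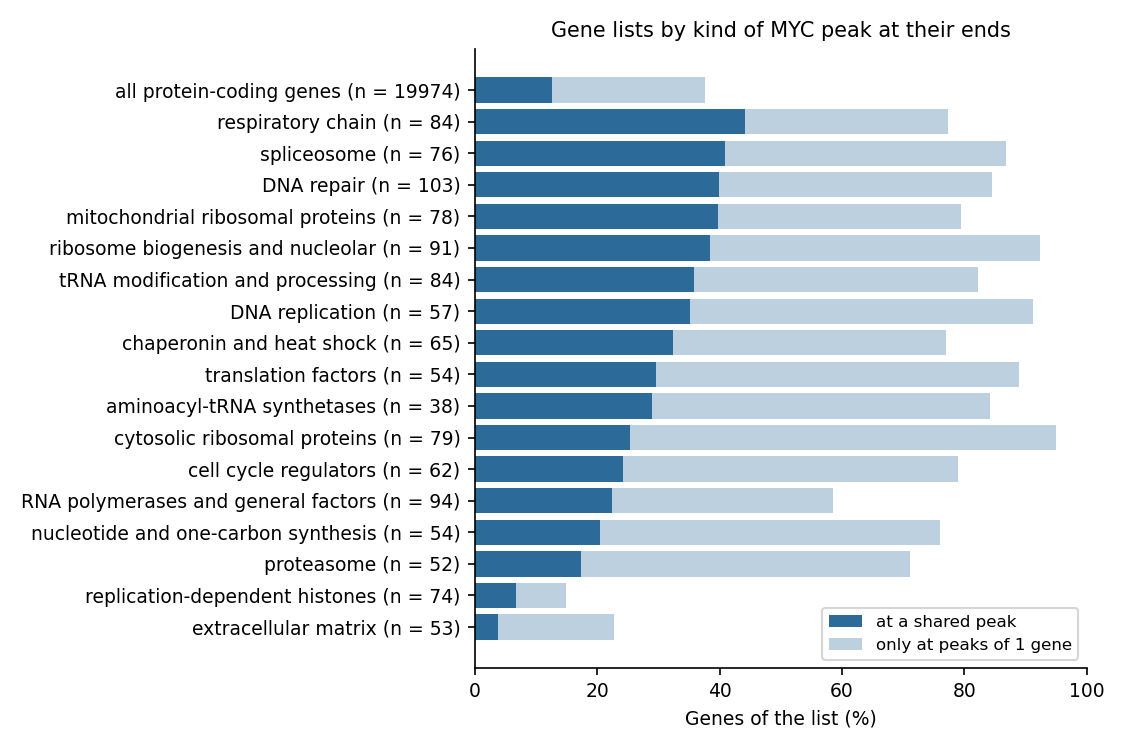
Bars give the percentage of the genes of each list, with its size, that lay at a shared peak (dark) or only at peaks of 1 gene (light); the top bar is all protein-coding genes. Respiratory chain genes reach 44.0% at shared peaks, while cytosolic ribosomal proteins have the highest total with 25.3% at shared peaks.

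A list gene was present at 330 of the 1268 peaks. In 31 all genes belonged to some of the 17 lists, and in 4 to the same one: MRPL46 with MRPS11 (fold 8.18), HARS1 with HARS2, the cytosolic and mitochondrial histidyl-tRNA synthetases (7.38), and the 2 histone pairs. HSPD1 and HSPE1 are not counted among these, since the third gene at their peak is the read-through HSPE1-MOB4. The other peaks joined different lists. Besides those above, and named after their values were seen, they included NDUFA7 with RPS28 (14.9), TAF8 with CCND3, a G1 cyclin (15.9), TRMT6 with MCM8 (11.2), UTP23 with EIF3H (11.8) and XPC, the damage sensor, with LSM3 (9.21). MRPL32 with PSMA2 (8.14), MRPL18 with TCP1 (9.43), FAU with MRPL49 (7.04) and ORC3 with RARS2 (5.86) were also among them. The same counts were not made for single peaks, so those above are not read as many or few. A peak of several genes has more chances to hold a list gene. Among all 1003 simple head-to-head pairs, bound or not, 232 held a gene of the 15 growth and housekeeping lists.

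Of 24 textbook gene pairs, 13 shared a MYC peak. Over all simple head-to-head pairs, bound or not, 71.6% had a summit near both starts (718 of 1003), so 13 of 24 is no excess. Some of the 24 lie too far apart to meet the rule, as given below. HSPD1 and HSPE1, the mitochondrial chaperonin genes, stood 105 bp apart with a fold of 33.5 over 1780 bp, and the read-through gene HSPE1-MOB4 made this a peak of 3 genes. PRKDC and MCM4 (32.0) followed. Grouped by function and not by rank, further pairs with a repair gene were ATM, the damage kinase, with NPAT (18.5), NUDT1 with MRM2 (9.99) and BRCA2 with ZAR1L (7.42). GART of purine synthesis with SON (11.1), IGHMBP2 with MRPL21 (7.75), CDC45 with UFD1 (7.25), SURF1 with SURF2 (6.08) and SARS2 with MRPS12 (5.93) were also shared. SIRT3 with PSMD13 had a fold of 2.69, among the 3 weakest of all shared peaks by −log10 q, although its summit lay 1 bp from one end and 46 bp from the other.

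The 11 other textbook pairs differed in what they lacked. No gene of the 3 collagen pairs COL4A1 and COL4A2, COL4A3 and COL4A4, and COL4A5 and COL4A6 had a summit within 1000 bp, and the nearest lay 10736, 10400 and 526566 bp away. TAP1 with PSMB9, of antigen presentation, and PSENEN with U2AF1L4 had none either, at 711500 and 10676 bp. Around TAP1 and PSMB9 the list thus holds no summit over a wide region, so the lack is not particular to this pair. Its cause was not tested. In 4 pairs 1 gene was bound: PPAT (fold 55.4), TBP (9.84), TRMT2A (54.6) and SLC33A1 (10.9). For PPAT and PAICS the closest annotated ends are 17145 bp apart, and for GMPS and SLC33A1 15003 bp, so a shared peak was not possible by this rule. For TBP and PSMB1 they are 1062 bp apart, and the summit lay 1041 bp from PSMB1. UNG and ALKBH2 had a peak each, but their closest ends are 4125 bp apart, also too far for the rule. ACAT2 and TCP1, whose closest ends are 614 bp apart, had a peak each as well.

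CACGTG and CACGCG were found more often at these promoters than at promoters with no summit, and CATGTG and the general form CANNTG less often. In all, 10 motifs were searched on both strands of 22132 RefSeq promoter windows of protein-coding genes, which include several starts for some genes and overlap within head-to-head pairs. CACGTG was in 303 of 2307 windows at shared peaks (13.1%, 11.8 to 14.6), in 11.6% of 5121 windows at single peaks, in 6.16% of 13848 windows with no summit within 1000 bp and in 8.34% of all windows. CACGCG was in 20.3%, 21.8%, 9.95% and 14.2%. CATGTG was in 4.99% at shared peaks, 5.59% at single peaks, 11.1% without a summit and 8.93% of all windows. CANNTG, which includes CACGTG and CATGTG, was in 57.7%, 57.6%, 69.6% and 65.1%. GC content moved with these groups, with medians of 65% at shared peaks, 67% at single peaks and 58.7% without a summit, and its part in the differences was not tested.

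Where the windows held the summit, matches to several motifs lay near it. Of 185 CACGTG matches in such windows at shared peaks, 108 had their centre within 50 bp of the summit (58.4%, 51.2 to 65.2), against 28.4% of all bases of these windows. The share was 53.6% for CACGCG (141 of 263), 52.9% for CATGTG (27 of 51), 45.5% for the ETS core CCGGAAG (186 of 409), 44.3% for GCATGCG (54 of 122), 36.2% for CANNTG and 33.7% for ATGGCGG. It was 28.4% for GGGCGG, the core bound by SP1, 16.0% for CCAAT (67 of 420) and 10.7% for TATAAA (3 of 28). At single peaks CACGTG reached 67.9% (63.4 to 72.1), with a median distance of 24.5 bp to the summit against 40.5 bp at shared peaks. The intervals of the shares overlap narrowly, and the difference was not tested.

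Strong shared peaks held E-boxes more often than weak ones. The 205 shared peaks with CACGTG in a promoter window had a median fold of 12.1 (quartiles 7.59 and 19.2), and the 914 without it 8.25 (5.84 and 12.2). A fold of at least 10 was reached by 59.0% (52.2 to 65.5) of the former and 37.1% (34.0 to 40.3) of the latter. The same split of single peaks gave medians of 10.0 and 7.98. In 511 shared peaks outside chromosome 8 the windows covered 151 bp around the summit. CACGTG was in 34 of the 102 strongest of these (33.3%, 24.9 to 42.9) and in 6 of the 103 weakest (5.83%, 2.70 to 12.1), beside 4.93% of stretches of this length from the middle of all windows. With CACGCG counted too, the shares were 57.8%, 15.5% and 12.5%.

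**Figure D5:**
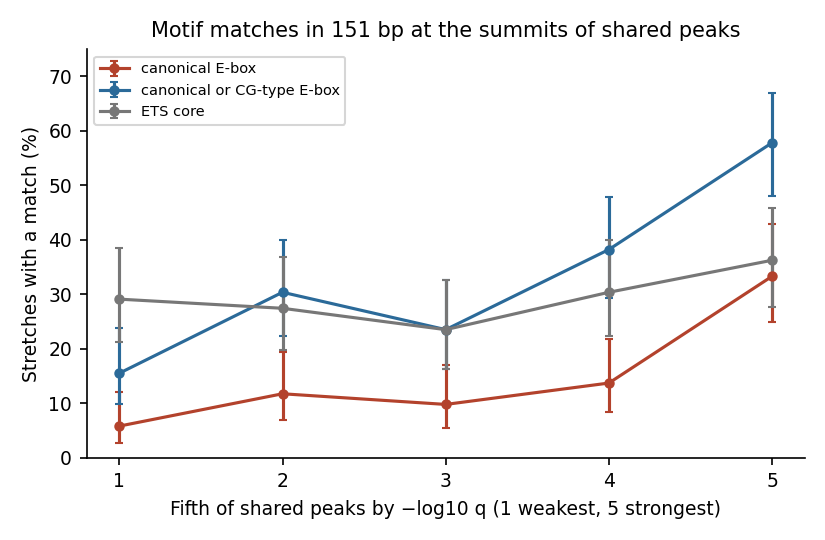
Points give the percentage of 151 bp summit stretches with a match (y), with Wilson 95% intervals, in 5 groups of 102 or 103 shared peaks ordered by the authors' −log10 q (x, group 5 strongest). The canonical E-box goes from 5.83% to 33.3% and the pair of E-box forms from 15.5% to 57.8%, while the ETS core lies between 23.5% and 36.3%.

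The ETS core CCGGAAG set shared apart from single peaks more than the E-box did. ETS factors such as GABPA are known at many bidirectional promoters. The core was in 702 of 2307 windows at shared peaks (30.4%, 28.6 to 32.3), in 21.6% (20.5 to 22.8) at single peaks, in 6.64% without a summit and in 12.8% of all windows. In windows that held the summit it was in 38.9% (36.2 to 41.7) at shared and 27.9% (26.1 to 29.7) at single peaks. ATGGCGG, a core of YY1 sites, was in 15.4% (14.01 to 17.0) and 11.97% (11.1 to 12.9) of windows at shared and single peaks, and in 6.99% of all windows. CCAAT was in 36.6% and 33.7%, GCATGCG in 7.89% and 6.84%, and GGGCGG in 71.7% (69.8 to 73.5) and 75.7% (74.5 to 76.8). TATAAA was in 3.51% and 4.28%, and in 9.46% of all windows. A match is a stretch of letters and not a shown site of binding.

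The 46 peaks at 3 genes had a median fold of 9.57 and a median width of 978 bp. The strongest by −log10 q after the HSPD1 promoter, named after their values were seen, were PPAN with PPAN-P2RY11 and ANGPTL6 (fold 22.9), RPL36A with RPL36A-HNRNPH2 and BTK (35.7), and ALG3 with EEF1AKMT4 and EEF1AKMT4-ECE2 (24.4). Each of these 4 includes a read-through gene. The weakest shared peaks besides SIRT3 and PSMD13 were CAPN14 with EHD3 (2.18) and SYNGR4 with TMEM143 (2.48). An end of a long noncoding RNA gene was also within 1000 bp at 92 shared peaks (7.26%, 5.95 to 8.82), against 25.4% of single peaks.

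The limit of 1000 bp fell among peaks of ordinary height. Just inside it for the second gene were ADSS2 with CATSPERE (1000 bp, fold 13.0), ANKHD1 with ANKHD1-EIF4EBP3 (997 bp, 5.17) and DENND4B with CRTC2 (992 bp, 6.84). Just outside were ING1 with CARS2 (1002 bp, 8.53), CDK19 with AMD1 (1013 bp, 7.16) and TMEM35B with ZMYM6 (1015 bp, 5.81).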

How the data were processed

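MYC ChIP-Rx in parental U2OS cells is represented by 1 deposited peak list of 9818 peaks on chromosomes 1 to 22 and X. Per the submitters' processing notes, cutadapt, Bowtie2, SAMtools, Picard and MACS2 were used, with the builds hg19, mm10 and hg38; the sources used here give no versions, settings or roles, nor whether the 2 antibody libraries were pooled, nor how the mouse reads and input were scaled. The fold deposited by the authors is a linear ratio, and the −log10 q-value deposited by the authors refers to the summit. The deposited score, close to 10 times the −log10 q-value, was not used. Depth is unknown, and the 2 antibody libraries and 1 input library were not compared.

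Summits were column 2 plus column 10 of the list as they stand, which is 1 below browser coordinates, and a gene end is the start or end of a RefSeq span (GRCh38.p14, 19974 protein-coding genes). Strand and 300-base promoter windows came from a RefSeq table that held 15812 of these genes, 2132 of the 2519 at shared peaks. Respiratory chain genes were taken by symbol and include assembly factors. Summit sequences were not read on chromosome 8. Motif matches, medians and Wilson intervals were computed in Python 3.11.15 with SciPy 1.17.1, and the classification was tested on simulated data. No replicate error exists, so no test was run. The members and gene lists were chosen with earlier results of these data known. Named peaks are the 15 highest by −log10 q, 5 by fold, the 3 strongest per list and those with all genes in it, the textbook pairs (2 are not reported here), the 3 weakest, and 3 on each side of the limit; others are said to be chosen after their values were seen.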

Additional observations from a re-analysis of the deposited data

How the results depend on the processing

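The number of shared peaks was 923 and 1616 with windows of 500 and 2000 bp, and 1267 with the summit counted from 1, a setting added after the data were seen. It fell to 759 in the stronger 50% of peaks by −log10 q and was 2614 with long noncoding genes counted too. The head-to-head share was 83.1% with 500 bp, 69.5% with 2000 bp and 82.0% in the stronger 50%. Simple pairs with a summit near both ends were 37.9% as reported, 28.3% with 500 bp, 41.3% with 2000 bp and 22.8% in the stronger 50%. For head-to-head pairs alone these were 71.6%, 57.7%, 74.5% and 45.2%. The difference of shared from single peaks was 0.22 log2 units with −log10 q in place of fold, and between 0.05 and 0.10 units of fold under the 5 other settings run for it. The settings for window, strength and gene type admit fewer or more peaks or genes by construction, and the cause of the larger value with −log10 q was not tested. Shared peaks stayed higher and wider in median than single ones under every setting run for those 2 values. No paired analysis was possible because the list does not separate the 2 antibody libraries, and leaving out a library was not possible for the same reason. Without counts per library, depth limits every value to a description of this list.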

Other observations

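In 9 gene pairs 2 separate summits each met the rule, between 542 and 978 bp apart. The highest were MASTL, a mitotic kinase gene, with YME1L1 (folds 18.1 and 5.76) and TXNL4A, a spliceosome gene, with RBFA (12.2 and 10.4). In AIDA with BROX the folds were 4.48 and 5.03, and in SERTAD2 with LOC124907776 they were 3.73 and 10.5.

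The share of gene-end peaks that were shared ranged from 13.6% on chromosome 10 to 26.7% on chromosome 17. Chromosome 16 stood at 26.0% and chromosome 4 at 14.4%. There were 22.7 and 21.0 simple pairs of close gene ends per 100 genes on chromosomes 16 and 17, and 8.96 and 11.0 on chromosomes 4 and 10. Not all chromosomes followed this order: chromosome 21 had 23.1% shared with 9.21 pairs per 100 genes (12 of 52 peaks), and chromosome 6 had 18.3% shared with 18.3 pairs.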
